A study of Mus musculus with 12 samples.

Results

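Transcripts of 9 genes that move ions and fluid across the intestinal lining were described in mouse small intestine with and without necrotizing enterocolitis (NEC), in which the bowel wall of the newborn becomes inflamed and dies. The 9 genes were chosen by name, out of 54532 genes in each deposited expression table, and no name occurred more than once. They were Cftr, Slc12a2, Slc4a4, Kcnq1, Kcnn4, Slc9a2, Slc9a3, Slc26a3 and Slc26a6. The choice was made with their levels in these libraries known, so the comparison of NEC with control below gives the size of each difference against the spread between libraries and is not independent evidence about the group.

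The study sequenced RNA of C57BL/6J mouse small intestine in 12 libraries, 3 in each of 4 groups. Mice labelled CKO carried a knockout of Piezo1, a mechanically gated cation channel, in intestinal epithelial cells, and mice labelled flox were their floxed controls. Flox control and CKO control tissue came from mice without NEC, and flox NEC and CKO NEC tissue from mice in which NEC had been induced. The sources used here give neither the Cre driver nor the NEC protocol, age or sex. Nothing in them says that libraries came from separate mice, so p-values measure only the spread between libraries, which may be technical. The values are FPKM, a count of sequenced fragments divided by transcript length and library size, deposited in 1 table for each condition.

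Intestinal epithelium secretes chloride and bicarbonate mainly from its crypts and absorbs sodium chloride mainly on its villi, and water follows the ions. For secretion, Slc12a2 (NKCC1, a Na+-K+-2Cl- cotransporter) and Slc4a4 (NBCe1, a Na+-bicarbonate cotransporter) load the cell across its basolateral membrane, Cftr (the cystic fibrosis anion channel) lets the anions out into the lumen, and the basolateral K+ channels Kcnq1 and Kcnn4 keep the driving force by letting K+ out. For absorption, the Na+/H+ exchangers Slc9a3 (NHE3) and Slc9a2 (NHE2) work beside the anion exchangers Slc26a3 (DRA) and Slc26a6 (PAT1), which take up chloride in exchange for bicarbonate.

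The coordinates in the tables are those of GRCm38 and were identical to GENCODE M21 for 98.3% of 54495 matched gene identifiers, all 9 transporters among them. Cftr (ENSMUSG00000041301) spans 18170687 to 18322768 on chromosome 6, and Slc4a4 (ENSMUSG00000060961) spans 88886818 to 89239653 on chromosome 5.  Of the K+ channel genes, Kcnq1 (ENSMUSG00000009545) spans 143106362 to 143427042 and Kcnn4 (ENSMUSG00000054342) 24370263 to 24386690, both on chromosome 7. Slc9a2 (ENSMUSG00000026062) lies on chromosome 1 from 40680574 to 40769273, and Slc9a3 (ENSMUSG00000036123) on chromosome 13 from 74121457 to 74169442. Slc26a3 (ENSMUSG00000001225) lies on chromosome 12 from 31390871 to 31473917, and Slc26a6 (ENSMUSG00000023259) on chromosome 9 from 108853283 to 108913049. The identifier of Slc12a2 is ENSMUSG00000024597. All 9 are on the plus strand.

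Sequence upstream of the start is shown for 3 of the secretory genes that were several times higher in NEC, Cftr, Slc4a4 and Kcnn4, and for the absorptive exchanger Slc9a3 beside them, so that their starts can be compared. RefSeq's promoter table (GRCm38.p6) held 6 of the 9 genes. The 4 stretches printed are the 250 bases before an annotated start, 5′ to 3′ on the plus strand, and touch no GENCODE M21 exon. Capitals mark matches, on either strand, to 2 of the 5 short motifs searched, a GC box (GGGCGG) and a CCAAT box (CCAAT). No printed stretch held a match to a TATA box (TATAAA), an AP-1 site (TGANTCA) or a GATA site (AGATAA).
Cftr promoter, chr6:18170437-18170686: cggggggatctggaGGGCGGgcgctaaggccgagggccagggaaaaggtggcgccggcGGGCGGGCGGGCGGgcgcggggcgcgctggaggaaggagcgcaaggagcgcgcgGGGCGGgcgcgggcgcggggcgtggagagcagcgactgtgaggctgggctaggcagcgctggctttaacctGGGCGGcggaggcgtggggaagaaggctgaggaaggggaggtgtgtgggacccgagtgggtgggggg
Slc4a4 promoter of an internal start, chr5:89027716-89027965: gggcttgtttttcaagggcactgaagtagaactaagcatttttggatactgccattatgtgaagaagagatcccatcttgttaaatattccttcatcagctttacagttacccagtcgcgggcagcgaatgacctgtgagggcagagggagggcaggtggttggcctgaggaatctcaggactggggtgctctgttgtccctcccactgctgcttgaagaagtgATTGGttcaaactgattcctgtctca
Kcnn4 promoter, chr7:24370013-24370262: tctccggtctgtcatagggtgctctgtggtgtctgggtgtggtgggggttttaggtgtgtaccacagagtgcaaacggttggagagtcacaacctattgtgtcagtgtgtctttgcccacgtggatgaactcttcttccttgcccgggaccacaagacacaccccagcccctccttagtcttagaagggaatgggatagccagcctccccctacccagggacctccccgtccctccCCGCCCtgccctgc
Slc9a3 promoter, chr13:74121163-74121412: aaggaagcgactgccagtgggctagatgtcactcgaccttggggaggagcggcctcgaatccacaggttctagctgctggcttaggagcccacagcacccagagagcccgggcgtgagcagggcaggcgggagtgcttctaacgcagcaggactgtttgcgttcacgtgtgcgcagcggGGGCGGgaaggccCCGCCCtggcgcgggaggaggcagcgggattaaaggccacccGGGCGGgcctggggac

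The Cftr stretch was 76.4% G and C and held 6 GC boxes, counting 3 that overlap one another. Matches to different motifs did not overlap. The Slc9a3 stretch was 67.6% G and C with 3 GC boxes, and the Kcnn4 stretch 58.8% with 1. The internal Slc4a4 start had no GC box, 1 CCAAT box and 48.8% G and C. Whether that start was used in these libraries was not tested. Over all 32851 promoters of the table, cut to the same length, 32.7% held a GC box, 33.8% a CCAAT box, 12.4% a TATA box, 6.75% an AP-1 site and 9.99% a GATA site. The table also held an upstream start of Slc4a4, whose 250 bases touch a GENCODE M21 exon and are not printed. They were 82% G and C with 1 GC box. The stretches of Slc26a6 and Slc26a3 also touch M21 exons and are not printed. That of Slc26a6 held 1 GC box and 2 CCAAT boxes. That of Slc26a3 held 1 TATA box, 2 CCAAT boxes and no GC box. A match is a string of letters and not a measured site.

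Multiplied by gene length, 100% of the deposited values of a library fell on multiples of 1 number (tolerance 0.05 of a read), so the reads per gene could be recovered, 13057724 to 16821130 in a library. The 2 tables had been scaled separately. Against a scale computed over all 12 libraries, the deposited values lay 0.12 log2 higher in the NEC libraries and 0.035 log2 lower in the control libraries, on average. Levels across conditions are therefore given as rescaled FPKM, computed from the recovered reads on the shared scale. Each condition fills its own table, so condition and table cannot be told apart. Piezo1 itself, the targeted gene, stood at 1.42, 1.48 and 1.11 rescaled FPKM in flox control 1 to 3 and at 1.76, 1.06 and 0.951 in CKO control. In flox NEC it stood at 6.75, 6.64 and 6.23, and in CKO NEC at 4.97, 5.13 and 3.04. The labelled genotypes overlapped in control tissue and did not in NEC, where the difference of -0.53 ± 0.18 log2 (SE) missed the threshold of 0.05 (limma, Benjamini-Hochberg adjusted p = 0.840). Piezo1 shares 24.6% of its exon bases with Ctu2 on the other strand, and the sources used here do not say whether the authors counted by strand.

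Both control libraries numbered 3 stood apart from the rest of their groups, and the differences touch Slc9a2, Slc26a6 and Kcnq1 below. They were also the lowest of their groups for Cftr, Slc12a2 and Kcnn4, and CKO control 3 was the highest of its group for Slc9a3 and Slc26a3. Genes known to vary along the length of the small intestine were looked up for that reason, after the values were seen. Slc10a2, the bile acid uptake transporter of the ileum, was at 0.0489, 0.0668 and 6.72 rescaled FPKM in flox control 1 to 3 and at 0.181, 0.393 and 1.33 in CKO control. It was at 15.1 to 20.8 in flox NEC and 6.15 to 19.6 in CKO NEC, above every control library but for CKO NEC 1, which lay below flox control 3. Gata4, a transcription factor of the proximal small intestine, was at 11.04, 15.1 and 0.945 in flox control, 9.46, 8.52 and 14.8 in CKO control, 2.41, 4.40 and 0.558 in flox NEC, and 13.6, 0.315 and 0.901 in CKO NEC. For Gata4 the control libraries numbered 3 thus went opposite ways, lowest of its group in flox and highest in CKO. Fabp1, a fatty acid binding protein of proximal enterocytes, was at 0.513 in flox control 3 against 321 and 790 in the other flox control libraries. In CKO control its mean was 0.638 times that of flox control, while on the log2 scale it was higher than in flox control by 1.55 ± 2.14 (SE). In CKO NEC, Fabp1 was at 587, 2.33 and 6.48, so that CKO NEC 1 alone of the NEC libraries lay among the control libraries numbered 1 and 2 for both Gata4 and Fabp1. The part of position along the intestine in the results below was not tested.

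**Figure D1:**
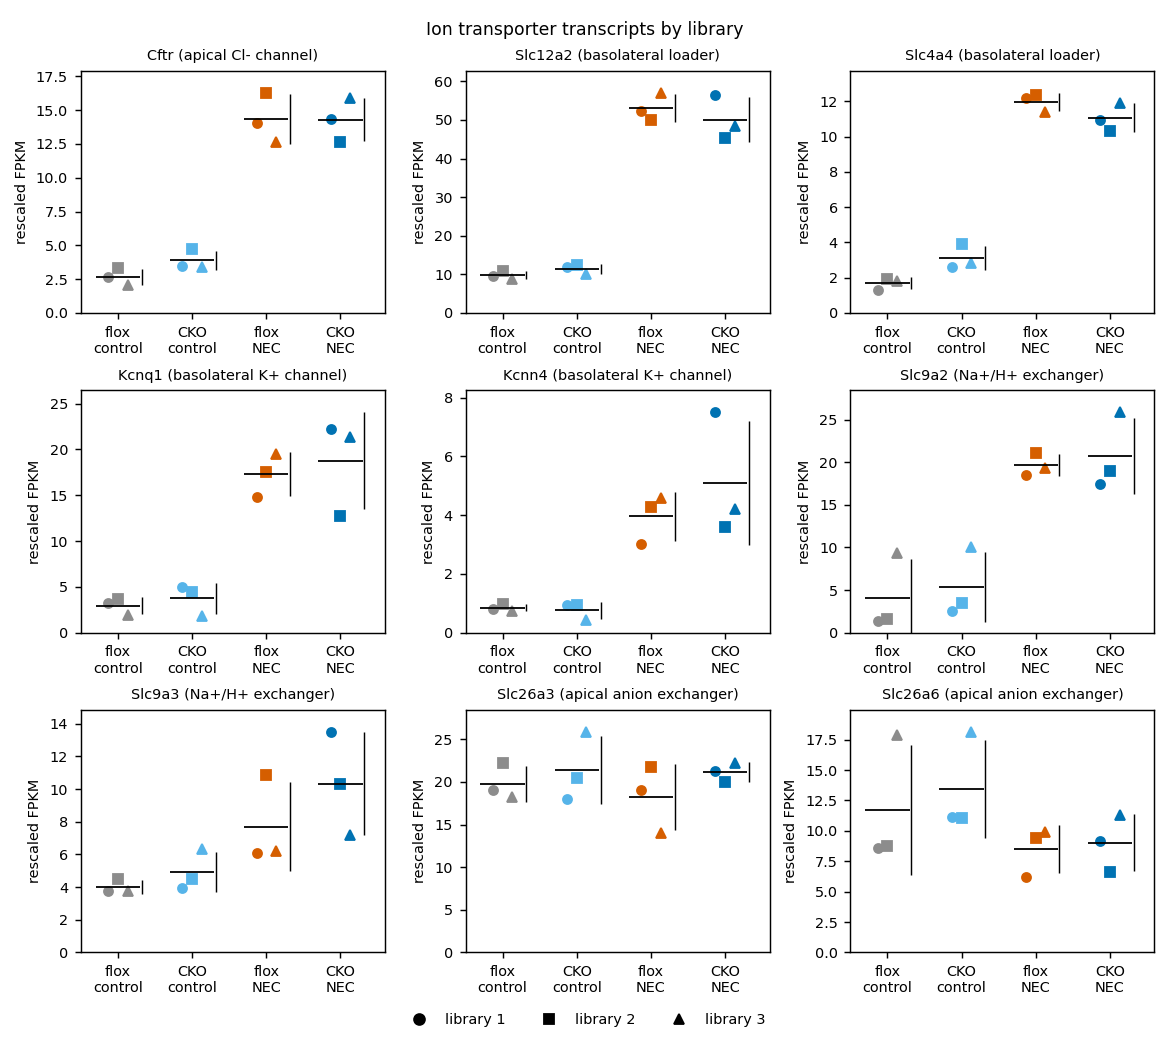
Rescaled FPKM (linear axis from 0) of each of the 9 transporters in the 4 groups, with 1 point per library (circle, square and triangle for libraries 1, 2 and 3), a horizontal line at the group mean and a vertical bar of 1 SD on either side (n = 3), cut off at 0 where it would pass below. Cftr, Slc12a2, Slc4a4, Kcnq1, Kcnn4 and Slc9a2 have every NEC library above every control library. Slc26a3 overlaps across all groups, and control library 3 is the highest of its group for Slc9a2 and Slc26a6 in both genotypes.

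In NEC the secretory transporters were several times higher than in control tissue, in both genotypes. Slc12a2, which brings chloride into the cell, had 5.44 times its control level in flox and 4.38 times in CKO. Cftr, through which the chloride leaves, had 5.37 and 3.69 times, and the K+ channel Kcnq1 5.86 and 5.03 times. Of the absorptive genes, Slc9a2 was 4.77 and 3.87 times as high and Slc9a3 1.92 and 2.09 times, and the chloride-bicarbonate exchangers Slc26a3 and Slc26a6 passed no test in either direction. Of the 9 genes, 7 rose and 0 fell in flox, where 28.6% of 13791 genes tested rose, and 7 rose and 0 fell in CKO, where 17.4% of 13409 rose (limma, Benjamini-Hochberg adjusted p under 0.05). In either direction 56.3% of genes changed in flox and 37.7% in CKO. Without both control libraries numbered 3, again 7 of the 9 rose in each genotype. The median change of the 9 was 2.07 log2 in flox and 1.65 in CKO, against 0.011 and -0.024 over all genes tested. NEC and control libraries did not overlap for 7 of the 9 in each genotype, against 64.8% of all genes tested in flox and 53.6% in CKO. Among the 7, Kcnn4 met the filter on low values only through its NEC libraries. Nothing is read from these counts about the group, because its members were chosen with the values known.

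Slc12a2 stood at 9.68, 10.9 and 8.71 rescaled FPKM in flox control 1 to 3 and at 52.3, 50.0 and 57.1 in flox NEC. In CKO it stood at 11.96, 12.4 and 9.98 in control and at 56.5, 45.3 and 48.4 in NEC. The lowest NEC library was several times above the highest control library, and within a condition the libraries lay close together. On the scale of log2(rescaled FPKM + 1), Slc12a2 rose by 2.33 ± 0.12 (SE, n = 3 against 3) in flox (limma, adjusted p = 4.48e-05) and by 2.04 ± 0.14 in CKO (adjusted p = 8.80e-04).

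Slc4a4, which loads bicarbonate, was the lowest of the secretory genes after Kcnn4 in flox control, with 1.31, 1.92 and 1.81 rescaled FPKM, and reached 12.2, 12.3 and 11.4 in flox NEC. In CKO the control libraries held 2.62, 3.91 and 2.84 and the NEC libraries 10.96, 10.3 and 11.9. NEC libraries lay in a narrow band in both genotypes, and the CKO control libraries were all above the flox control libraries. The rise was 2.28 ± 0.12 log2 in flox (limma, adjusted p = 4.65e-05) and 1.56 ± 0.15 in CKO (adjusted p = 0.00142), which is 7.11 and 3.54 times the control level.

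Cftr, the apical exit, was at 2.63, 3.29 and 2.08 rescaled FPKM in flox control and at 14.1, 16.3 and 12.6 in flox NEC. CKO control libraries held 3.49, 4.72 and 3.42, and CKO NEC libraries 14.4, 12.7 and 15.9. The NEC levels of the 2 genotypes interleaved, while the control levels did not overlap. Cftr rose by 2.07 ± 0.15 log2 in flox (limma, adjusted p = 1.13e-04) and by 1.65 ± 0.15 in CKO (adjusted p = 0.00135). An antisense gene, Gm15592, shares 1.66% of its exon bases.

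Kcnq1, which recycles K+ at the basolateral side, was at 3.27, 3.69 and 1.89 rescaled FPKM in flox control and 14.8, 17.6 and 19.5 in flox NEC. CKO control libraries held 5.03, 4.39 and 1.78, and CKO NEC libraries 22.2, 12.7 and 21.4. Control library 3 was the lowest of its group in both genotypes, and every NEC library was above every control library. The rise was 2.23 ± 0.20 log2 in flox (limma, adjusted p = 1.73e-04) and 2.10 ± 0.33 in CKO (adjusted p = 0.00490). The antisense Kcnq1ot1 covers 2.96% of the exon bases of Kcnq1. It was at 0.0827 to 0.378 rescaled FPKM, with every NEC library below every control library.

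Kcnn4, the Ca2+-activated K+ channel that sustains secretion driven by Ca2+, was the lowest of the 9 in every group. Flox control libraries held 0.807, 0.990 and 0.749 rescaled FPKM, and flox NEC libraries 3.02, 4.29 and 4.59. CKO control libraries held 0.936, 0.929 and 0.434, and CKO NEC libraries 7.50, 3.58 and 4.22. CKO NEC 1 stood above all the others, and the control values rest on 31 to 73 reads. Every control library lay below 1 rescaled FPKM, so Kcnn4 met the filter on low values (1 FPKM in 3 or more libraries) only through its NEC libraries. Its p-values are therefore given as a description only. Kcnn4 rose by 1.41 ± 0.16 log2 in flox (limma, adjusted p = 3.67e-04) and by 1.75 ± 0.25 in CKO (adjusted p = 0.00402). The added 1 FPKM holds these log2 values below the ratios of the mean levels, which were 4.68 and 6.65. With limma-voom on the recovered reads, which adds far less, Kcnn4 rose by 2.20 and 2.74 log2.

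Among the absorptive genes the Na+/H+ exchanger Slc9a2 was the one with the widest spread in control tissue. It was at 1.42, 1.60 and 9.35 rescaled FPKM in flox control and 2.49, 3.54 and 10.03 in CKO control. NEC libraries held 18.6, 21.1 and 19.3 in flox and 17.4, 18.9 and 25.8 in CKO. Control library 3 lay between the rest of its group and the NEC libraries, in both genotypes. Slc9a2 rose by 2.36 ± 0.51 log2 in flox (limma, adjusted p = 0.00618) and by 1.94 ± 0.41 in CKO (adjusted p = 0.0109). Without both control libraries numbered 3, left out after the values were seen, the rise was 3.04 log2 in flox (limma, adjusted p = 3.90e-05) and 2.43 in CKO (adjusted p = 0.00347). Those libraries held the control values nearest to NEC, so a larger rise without them was fixed in advance and adds no support.

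Slc9a3, the main Na+/H+ exchanger of the absorbing brush border, was at 3.75, 4.51 and 3.76 rescaled FPKM in flox control and at 6.06, 10.9 and 6.19 in flox NEC. In CKO it was at 3.95, 4.52 and 6.33 in control and at 13.5, 10.3 and 7.18 in NEC. The groups did not overlap within a genotype, but the lowest NEC libraries were close to the highest control libraries. The change was 0.76 ± 0.21 log2 in flox (limma, adjusted p = 0.0170) and 0.91 ± 0.24 in CKO (adjusted p = 0.0229). The call was lost with no filter on low values, at an adjusted p of 0.0501 in flox and 0.0620 in CKO. It was also lost without flox control 1 in flox (0.72 log2, limma adjusted p = 0.0512). In CKO it was lost without CKO control 1 (0.79 log2, 0.0682), without CKO control 2 (0.87, 0.0650), without CKO NEC 1 (0.72, 0.0635) or without CKO NEC 2 (0.89, 0.0671), each second number an adjusted p from limma.

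Slc26a3, which takes up chloride in exchange for bicarbonate and is mutated in congenital chloride diarrhoea, was the highest of the 9 in both control groups. Flox control libraries held 19.0, 22.2 and 18.2 rescaled FPKM and flox NEC libraries 19.0, 21.7 and 14.0. CKO control libraries held 18.0, 20.4 and 25.8, and CKO NEC libraries 21.3, 19.9 and 22.2. NEC and control libraries overlapped in both genotypes. The difference was -0.13 ± 0.17 log2 in flox (limma, adjusted p = 0.539) and -0.0038 ± 0.15 in CKO (adjusted p = 0.986), and its sign turned with the scaling in both.

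Slc26a6, an anion exchanger that also carries oxalate, was at 8.58, 8.73 and 17.9 rescaled FPKM in flox control and at 6.22, 9.39 and 9.89 in flox NEC. CKO control libraries held 11.2, 11.04 and 18.1 and CKO NEC libraries 9.15, 6.60 and 11.3. Control library 3 was the highest of its group in both genotypes, and the remaining control libraries were near the NEC libraries. The difference was -0.37 ± 0.29 log2 in flox (limma, adjusted p = 0.306) and -0.52 ± 0.24 in CKO (adjusted p = 0.131). Without both control libraries numbered 3 it was -0.046 in flox and -0.30 in CKO.

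**Figure D2:**
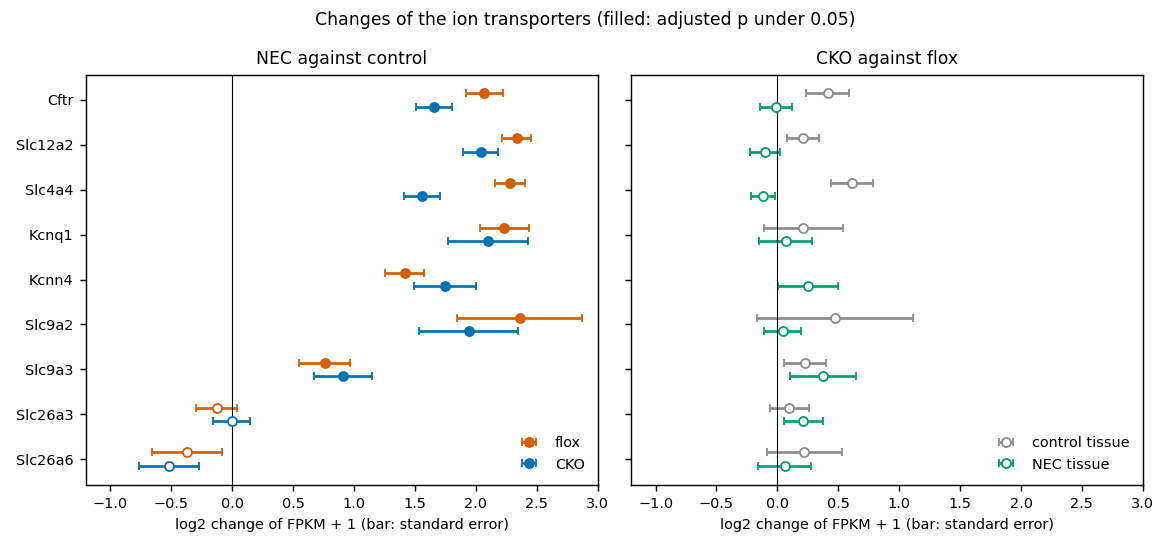
Log2 change of each transporter (horizontal axis, on the scale of FPKM + 1, bars of 1 standard error), left for NEC against control in flox and CKO on rescaled FPKM, right for CKO against flox in control and NEC tissue on deposited FPKM. Filled points had a limma adjusted p under 0.05, and Kcnn4 has no point in control tissue because it was under the filter on low values. On the left 7 genes of each genotype are filled, from 0.76 to 2.36 log2 in flox, and on the right no point is filled.

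The order of levels among the genes differed between control and NEC tissue. In flox control the order by mean rescaled FPKM, which is per length, was Slc26a3 (19.8 ± 2.09, SD, n = 3), Slc26a6 (11.7 ± 5.33), Slc12a2 (9.76 ± 1.09), Slc9a2 (4.12 ± 4.53), Slc9a3 (4.01 ± 0.435), Kcnq1 (2.95 ± 0.944), Cftr (2.67 ± 0.602), Slc4a4 (1.68 ± 0.324) and Kcnn4 (0.849 ± 0.126). The 1 SD ranges of neighbours overlapped for Slc26a6 and Slc12a2 and for each step from Slc9a2 down to Cftr, so their order is not resolved. The 1 SD range of Slc9a2 (libraries at 1.42, 1.60 and 9.35) also took in the mean of Slc4a4. Its place above Slc4a4 is therefore not resolved either. In flox NEC, Slc12a2 led at 53.1 ± 3.63, followed by Slc9a2 (19.7 ± 1.33), Slc26a3 (18.2 ± 3.90), Kcnq1 (17.3 ± 2.39), Cftr (14.3 ± 1.86), Slc4a4 (11.97 ± 0.520), Slc26a6 (8.50 ± 1.99), Slc9a3 (7.70 ± 2.74) and Kcnn4 (3.97 ± 0.836). Here the 1 SD ranges of neighbours overlapped for each step from Slc9a2 down to Slc4a4, and for Slc26a6 and Slc9a3. In CKO NEC, Slc12a2 again led at 50.1 ± 5.79, ahead of Slc26a3 (21.2 ± 1.15), Slc9a2 (20.7 ± 4.49), Kcnq1 (18.8 ± 5.27) and Cftr (14.3 ± 1.61). The level of Slc12a2 rests on the length of 6520 bases in the tables, while GENCODE M21 gives its exons 10920 bases, so its place among the genes depends on the gene model. The length cancels in its ratio between groups, but which reads are counted also depends on the model, and the ratio under the longer model was not tested.

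Markers of cell types moved with condition as well. In RNA from whole tissue, more cells of a type and more RNA per cell cannot be told apart. Beside the marker counts below, 28.6% of all genes tested rose and 27.7% fell in flox, and 17.4% and 20.3% in CKO. The 8 markers of all epithelium summed to 2531 to 3220 rescaled FPKM in flox control and 2553 to 2986 in flox NEC, and to 3241 to 3820 in CKO control and 2570 to 3405 in CKO NEC. In flox 4 of the 8 rose and 2 fell, and in CKO 1 rose and 1 fell. The 10 villus enterocyte markers summed to 20131 to 25844 in flox control against 6770 to 11100 in flox NEC, and to 18421 to 28038 in CKO control against 8506 to 12292 in CKO NEC. Of these 10, 5 fell and 1 rose in flox, and 3 fell and 1 rose in CKO, so the sum, of which the apolipoprotein genes Apoa1 and Apoa4 are the most abundant members, does not stand for every marker. The one that rose was Sis (sucrase-isomaltase), at 129 and 56.4 times its control level. Summed crypt stem and progenitor markers were higher in NEC, at 115 to 120 against 62.5 to 98.0 in flox and 113 to 189 against 68.3 to 95.1 in CKO, and 4 of 8 rose in flox and 3 of 8 in CKO. In flox 5 of the 8 had changes above 0, while Olfm4, Ascl2 and Smoc2 were at 0.808, 0.978 and 0.919 times their control level. This sum too does not stand for every marker. Lgr5 was under the filter on low values among control libraries, so its test rests on its NEC libraries and is a description only.

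Paneth cell and fibroblast markers summed to more in NEC in both genotypes, and enteroendocrine markers did not. The 5 Paneth cell markers summed to 307 to 331 in flox NEC against 12.1 to 64.5 in flox control, with 5 of 5 rising, and to 126 to 243 against 9.82 to 54.0 in CKO, with 4 of 5 rising. The 7 goblet cell markers summed to 872 to 1380 in flox NEC against 489 to 640 in flox control, with 6 of 7 rising, and to 517 to 1238 against 488 to 751 in CKO, where the ranges overlapped and 3 of 7 rose. The 6 enteroendocrine markers summed to less in NEC in flox, at 88.2 to 112 against 122 to 170, and to 61.4 to 87.7 against 83.4 to 111 in CKO, where the ranges overlapped. Of the 5 of them tested, 2 rose and 1 fell in flox, and 1 rose and 2 fell in CKO. The 6 smooth muscle markers summed to 1808 to 2847 in flox NEC against 690 to 882 in flox control, and to 521 to 2044 against 189 to 604 in CKO, where the ranges overlapped through CKO NEC 3. In flox 5 of these 6 rose and 1 fell, Tagln, at 0.603 times its control level. In CKO 1 of the 5 tested rose and 0 fell. The 6 fibroblast markers summed to 430 to 583 against 147 to 285 in flox and 284 to 474 against 57.1 to 164 in CKO, and 6 of 6 rose in each genotype. No marker of these epithelial and stromal lists was at 0 in any group. Lyz1 and Mmp7 of the Paneth list and Zg16 of the goblet list were under the filter on low values among control libraries. In NEC against control they met it only with their NEC libraries, so their calls are a description only. Of the 4 colon markers, Hoxb13 was at 0 in all 4 groups, and the sum of the list was 0.813 to 9.29 over all libraries. The 6 macrophage markers summed to less in NEC, at 44.7 to 53.1 against 102 to 125 in flox and 34.7 to 47.6 against 102 to 118 in CKO. Of the 6 tested in flox 3 fell and 1 rose, and of the 5 tested in CKO 3 fell and 0 rose. The part of these cell types in the changes of the transporters was not tested. In CKO NEC 1, where Gata4 and Fabp1 were as high as in control libraries 1 and 2, Slc12a2, Cftr, Slc4a4 and Kcnq1 stood at 56.5, 14.4, 10.96 and 22.2 rescaled FPKM, within the range of the remaining NEC libraries for the first 3 and above it for Kcnq1. Kcnn4 at 7.50 (others 3.02 to 4.59) and Slc9a3 at 13.5 (others 6.06 to 10.9) also lay above that range, and Slc9a2 at 17.4 (others 18.6 to 25.8) below it.

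**Figure D3:**
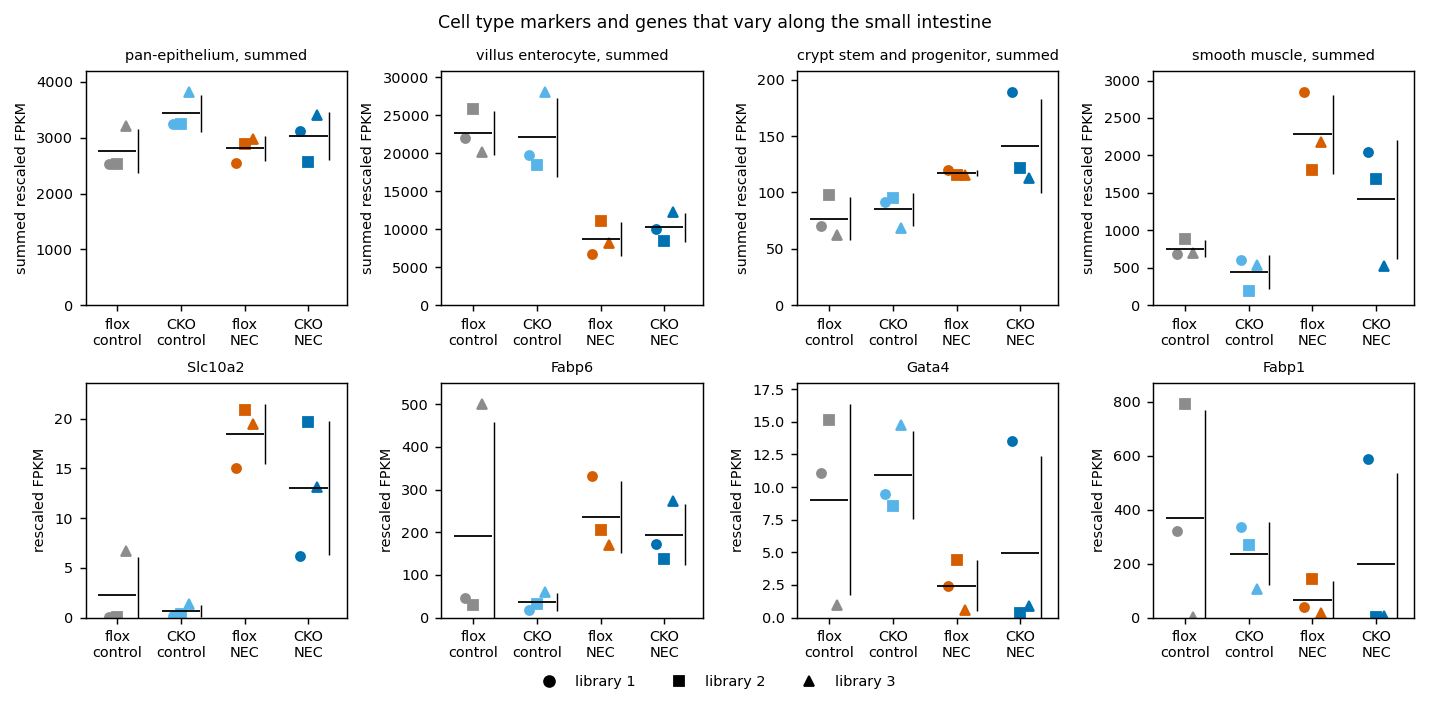
Upper row, summed rescaled FPKM of 4 marker lists, and lower row, rescaled FPKM of 4 genes that vary along the small intestine, with 1 point per library (circle, square and triangle for libraries 1, 2 and 3), a line at the group mean and a bar of 1 SD on either side (n = 3), cut off at 0. The villus sum is 6770 to 12292 in NEC libraries and at least 18421 in control libraries. For Fabp6, flox control 3 (500) lies apart from the other flox control libraries (46.0 and 29.0).

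The knockout and flox libraries were compared within each condition on the deposited FPKM, since each table was scaled by itself. In NEC none of the 9 transporters passed the test between CKO and flox. Slc12a2 was at 54.0 ± 6.37 FPKM (SD, n = 3) in CKO and 57.8 ± 3.82 in flox, Cftr at 15.4 ± 1.57 and 15.6 ± 2.03, and Slc4a4 at 11.9 ± 0.738 and 13.03 ± 0.606. The differences ranged from -0.12 ± 0.097 log2 for Slc4a4 to 0.38 ± 0.27 for Slc9a3, with limma adjusted p from 0.840 to 0.988. The 2 groups overlapped for all 9 genes, so that 0 of the 9 were apart, against 11% of all genes tested. Of 13673 genes tested, 0 passed the threshold with limma on FPKM and 0 with limma-voom on the recovered reads, and 599 (4.38%) had an unadjusted p under 0.05.

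The standard errors of this comparison set what it could show. They were 0.13 log2 for Cftr and Slc12a2, 0.15 for Slc9a2, 0.16 for Slc26a3, 0.21 for Kcnq1, 0.22 for Slc26a6, 0.25 for Kcnn4 and 0.27 for Slc9a3. Kcnn4 was at 5.50 ± 2.29 FPKM in CKO NEC and 4.32 ± 0.893 in flox NEC (0.25 log2), with CKO NEC 1 far above the rest. Slc9a3 was at 11.1 ± 3.49 and 8.39 ± 2.98, Kcnq1 at 20.2 ± 5.58 and 18.8 ± 2.52, and Slc26a3 at 22.8 ± 0.998 and 19.9 ± 4.28. Slc9a2 was at 22.3 ± 4.55 and 21.4 ± 1.41, and Slc26a6 at 9.72 ± 2.44 and 9.25 ± 2.13.

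Without NEC, the bicarbonate loader Slc4a4 and the chloride channel Cftr were higher in CKO than in flox tissue without passing the threshold. Slc4a4 held 2.56, 3.82 and 2.77 FPKM in CKO control and 1.28, 1.88 and 1.77 in flox control, means of 3.05 ± 0.677 and 1.64 ± 0.316 (SD, n = 3). Cftr held 3.41, 4.62 and 3.33 against 2.57, 3.20 and 2.03, means of 3.78 ± 0.722 and 2.60 ± 0.586. For these 2 genes the groups did not overlap, which was so for 2 of the 8 transporters tested and for 34.5% of all genes tested. The difference was 0.61 ± 0.17 log2 for Slc4a4 (limma, unadjusted p = 0.00905, adjusted p = 0.0817) and 0.41 ± 0.17 for Cftr (0.0488 and 0.171). These were 2 unadjusted p under 0.05 among 8, against 28.9% of all genes.

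The other 6 transporters tested in control tissue had differences of 0.099 to 0.47 log2, all toward higher values in CKO. Slc12a2 was at 11.2 ± 1.26 FPKM in CKO and 9.52 ± 1.06 in flox (0.21 ± 0.13 log2), and Slc9a3 at 4.82 ± 1.20 and 3.91 ± 0.421 (0.23 ± 0.17). Slc9a2 was at 5.22 ± 3.98 and 4.03 ± 4.42 (0.47 ± 0.64), where library 3 alone sets most of the spread. Kcnn4, at 0.748 ± 0.282 and 0.828 ± 0.122, was under the filter and was not tested. Of the 9 transporters 0 passed, and of 13300 genes 1 passed (0.00752%). Slc4a4 passed when all 4 groups shared 1 fit (limma, adjusted p = 0.0153), and in that fit 2166 genes passed.

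Marker lists and mitochondrial transcripts differed between the same control groups. Epithelial markers summed to more in CKO control (at least 3241 rescaled FPKM) than in flox control (at most 3220), a narrow gap. Smooth muscle markers summed to less, at most 604 against at least 690. Of the 8 epithelial markers 6 had changes above 0, while Krt18 and Krt19 were at 0.939 and 0.885 times flox. Of the 8 epithelial and 6 smooth muscle markers 0 passed the threshold. The groups did not overlap for 34.5% of all genes tested. Mitochondrially encoded genes took 11.1% to 14.3% of reads in flox control, 5.11% to 6.76% in CKO control and 3.47% to 4.52% in NEC. The part of these in the differences of Slc4a4 and Cftr was not tested. Scaled by total reads outside the mitochondrial genes, where the median of all genes moved by -0.17 log2, Slc4a4 differed by 0.48 log2 (adjusted p = 0.136) and Cftr by 0.26 (0.418), both from limma.

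Whether the NEC change itself differed between genotypes was tested as an interaction over all 12 libraries. For Slc4a4 the change in CKO was smaller than in flox by 0.73 ± 0.18 log2, a contrast of -0.73 with an unadjusted p of 0.00218 that missed the threshold (limma, adjusted p = 0.0664). The contrast was -0.42 ± 0.22 for Cftr (limma, adjusted p = 0.292), -0.31 ± 0.18 for Slc12a2 (0.346) and 0.33 ± 0.32 for Kcnn4 (0.608). The remaining 5 lay between -0.43 ± 0.73 for Slc9a2 and 0.15 ± 0.35 for Slc9a3. Of the 9 transporters 0 passed and 1 had an unadjusted p under 0.05, against 1.22% and 20.8% of 14808 genes tested. For Slc4a4 the adjusted p stayed above 0.05 under every alternative run, and the contrast kept its sign.

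Beyond the 9, a list of 65 other genes of ion and water transport was drawn up by role, also with earlier results of these data known. In flox 46 were tested, of which 15 rose and 9 fell in NEC, with a median of 0.16 log2. In CKO 47 were tested, of which 8 rose and 10 fell, with a median of 0.12. The shares rising in the background of all genes were 28.6% and 17.4%, as above, and the shares falling 27.7% and 20.3%. None of the list passed the comparisons of CKO with flox in NEC (46 tested) or control (46), or the interaction (48).

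Atp1b1, a beta subunit of the Na+/K+-ATPase, the pump that sets the Na+ gradient used by nearly all of these transporters, was higher in NEC in both genotypes. It was at 70.8 ± 30.0 rescaled FPKM (SD, n = 3) in flox control and 221 ± 12.3 in flox NEC, and at 108 ± 38.7 and 216 ± 28.1 in CKO. It rose by 1.71 and 1.05 log2 (limma, adjusted p = 0.00151 and 0.0193). In CKO its call was lost with no filter on low values (limma, adjusted p = 0.0525), and without CKO control 1, CKO control 2 or CKO NEC 1 (0.0558 to 0.0678). The subunits Atp1b2 and Atp1b3 passed in neither genotype.

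Of the water channels, 3 rose and 1 fell in flox among 5 tested, and 2 rose and 1 fell in CKO among 6. The shares over all genes tested are those given above. Aqp1, the water channel of endothelium and red cells and of some epithelia, was at 9.88 ± 2.37 rescaled FPKM in flox control and 62.7 ± 3.53 in flox NEC, and at 11.96 ± 3.49 and 62.9 ± 13.04 in CKO. It rose by 2.57 and 2.32 log2 (limma, adjusted p = 6.86e-05 and 0.00197). Aqp4, a basolateral water channel, rose by 1.70 and 1.23 log2, and Aqp7, which also carries glycerol, fell by 1.82 and 1.97. Without CKO NEC 1 the call of Aqp4 in CKO was lost (1.08 log2, limma adjusted p = 0.0517). The 4 endothelial markers summed to 34.0 to 40.5 in flox NEC against 12.9 to 24.2 in flox control, and to 28.5 to 34.6 against 13.1 to 19.1 in CKO, and 3 and 4 of them rose. Their part in the change of Aqp1 was not tested.

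Regulators of secretion and absorption moved in both directions. Vipr1, the receptor for the secretagogue vasoactive intestinal peptide, rose from 11.7 ± 4.39 to 43.6 ± 4.89 rescaled FPKM in flox and from 15.1 ± 8.31 to 46.2 ± 7.71 in CKO, by 1.87 and 1.65 log2 (limma, adjusted p = 6.18e-04 and 0.00942). The gut hormones that raise cyclic GMP and so open Cftr were lower in NEC. Guca2a (guanylin) was at 3576 ± 1630 in flox control and 984 ± 169 in flox NEC, and at 2933 ± 367 and 1251 ± 533 in CKO, a fall of 1.78 and 1.33 log2 (limma, adjusted p = 0.00275 and 0.0373). Guca2b (uroguanylin) was at 871 ± 275 and 308 ± 91.3 in flox, a fall of 1.49 log2. Prkg2, the cyclic GMP-dependent kinase of enterocytes, fell by 0.78 and 1.29 log2. With quantile normalization the calls of these hormones in flox were lost, at -0.46 log2 for Guca2a (limma, adjusted p = 0.128) and -0.68 for Guca2b (0.0546), and Guca2a in CKO was at -0.53 (0.256). In CKO the call of Guca2a was lost without any 1 of the 6 libraries other than CKO NEC 3 (limma, adjusted p from 0.0550 to 0.0925).

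Of the scaffolds that bind Slc9a3 at the brush border, Pdzd3 was the one with the smallest p in both genotypes. It was at 49.8 ± 4.57 rescaled FPKM in flox control and 18.3 ± 2.02 in flox NEC, and at 51.7 ± 6.57 and 22.5 ± 5.35 in CKO, a fall of 1.40 and 1.18 log2 (limma, adjusted p = 1.77e-04 and 0.00504). Slc9a3r1 (NHERF1) fell by 0.96 log2 in flox, a call lost with quantile normalization (-0.16), and in CKO its change was -0.84 (limma, adjusted p = 0.0523). Ahcyl1 (IRBIT), a partner that activates Slc4a4, Cftr and Slc9a3, rose by 0.77 and 0.39 log2, and its call in CKO was lost without any 1 of the 6 libraries other than CKO control 3 (limma, adjusted p from 0.0684 to 0.116), while it was 0.67 when scaled by total reads outside mitochondrial genes. In this list of 8 partners, 2 rose and 3 fell in flox, and 1 rose and 2 fell in CKO. Of all genes tested, 28.6% rose and 27.7% fell in flox, and 17.4% and 20.3% in CKO. Nothing is read from these counts.

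Few of the other carriers changed in both genotypes. Slc4a7, an electroneutral Na+-bicarbonate cotransporter, rose from 1.01 ± 0.125 to 3.93 ± 0.182 rescaled FPKM in flox and from 1.25 ± 0.300 to 3.12 ± 0.514 in CKO, by 1.29 and 0.87 log2, or by 1.96 and 1.34 with limma-voom. Slc26a2, a sulfate carrier, rose by 1.43 log2 in flox, and in CKO its change was 0.33 (limma, adjusted p = 0.210). Scnn1a, the alpha subunit of the epithelial Na+ channel, fell by 1.69 and 1.46 log2, from 16.4 ± 2.78 to 4.37 ± 0.683 in flox. Sgk1, a kinase that raises Na+ absorption, was at 27.2 ± 20.4 in flox control and 118 ± 16.0 in flox NEC and rose by 2.31 log2, and in CKO its change was 1.23 ± 0.54 (limma, adjusted p = 0.110). The exchanger Slc9a8 had a change of 0.13 log2 in flox and 0.043 in CKO, and passed in neither. Of the K+ channels and their partners, Kcnma1 rose by 0.62 log2 in flox (1.30 with limma-voom), while Kcne3, the partner of Kcnq1 in the intestine, had changes of 0.15 in flox and 0.68 in CKO (limma, adjusted p = 0.0706). Like Kcnn4, Kcnma1 met the filter on low values in flox only through its NEC libraries. Its call, counted in the wider list above, is therefore a description only.

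**Figure D4:**
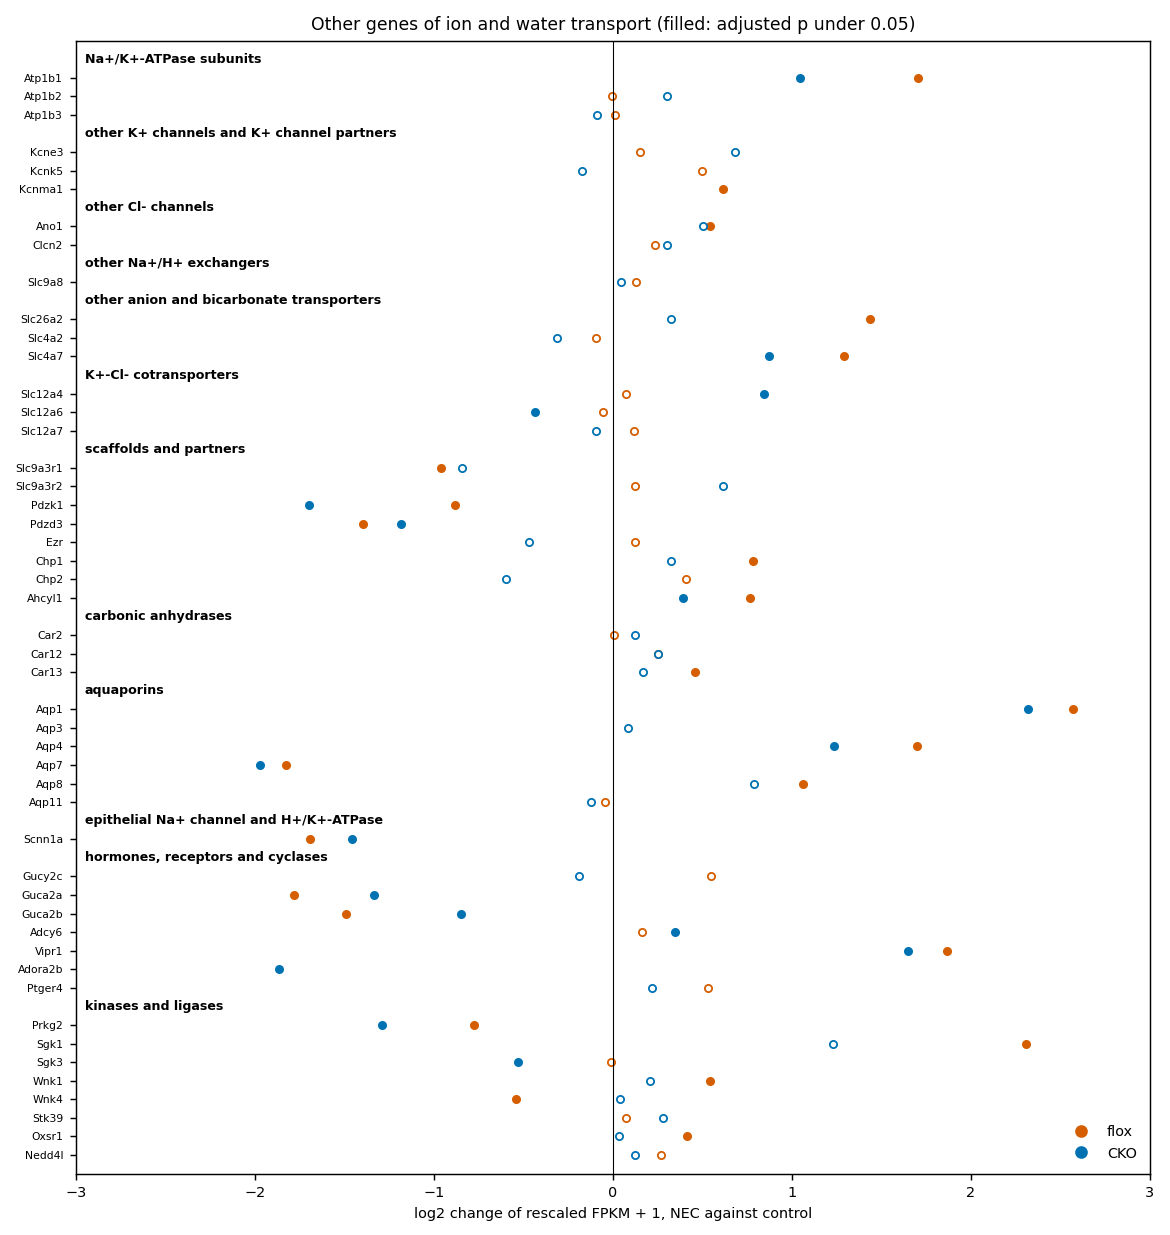
Log2 change of NEC against control (horizontal axis, on the scale of rescaled FPKM + 1) for the tested genes of the wider transport list, grouped by role, with 1 point for flox and 1 for CKO. Filled points had a limma adjusted p under 0.05. Aqp1 (2.57 and 2.32) and Sgk1 in flox (2.31) lie farthest to the right, and Aqp7 (-1.82 and -1.97) and Adora2b in CKO (-1.86) farthest to the left.

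The genes whose levels over the 12 libraries were most like each transporter are given as a description, among 7279 genes with a mean of at least 5 rescaled FPKM. All 12 libraries share the split between NEC and control, which alone gives high correlations to any pair of genes that differ between them. Slc12a2 was most like Bmp3 (Pearson r of log2 values 0.993) and Uck2 (0.992). Slc4a4 was most like Med14 (0.994) and Fam120a (0.991), and Cftr most like Fam120a (0.989) and Iars2 (0.988). Kcnq1 was most like Traf4 and the water channel Aqp1 (0.990 and 0.989), and Kcnn4 most like Ucp2 and Pcif1 (0.985 and 0.984).

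Slc9a2 was most like Abcb1a (0.989), an efflux pump of the brush border, and Camk2d (0.988). The highest values were lower for the genes that changed less. Slc9a3 was most like Eif5a (0.923) and Dlg3 (0.911). Slc26a6 was most like the sterol transporter gene Abcg8 (0.968) and Chmp6 (0.966), and Slc26a3 most like Dpy30 (0.773) and Gpn3 (0.772).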

How the data were processed

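Per the labels' protocols, RNA was isolated with Trizol and libraries were prepared with a NEBNext Ultra II kit. The authors deposited FPKM values with gene lengths in 1 table per condition, and the files show that each table was scaled by itself. The aligner, counter, strand setting and genome build were not stated in the labels or headers.

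The reads recovered from the deposited FPKM were divided by median-of-ratios size factors over all 12 libraries to give rescaled FPKM. Tests were run on log2(FPKM + 1) in limma 3.58.1 (trend) under R 4.3.3, for genes that reached 1 FPKM in 3 or more libraries of a comparison, with Benjamini-Hochberg adjustment over all genes tested and a threshold of 0.05. CKO was compared with flox, and the interaction tested, on deposited FPKM, and NEC with control on rescaled FPKM. A fold change on the log2 scale with 1 added understates the change of low genes. On simulated data, limma recovered 67% to 83% of 2-fold changes in the 4 comparisons of 2 groups and 25% in the interaction, and 99% to 100% of 4-fold changes, with 7 to 21 false calls (13572 to 14227 genes). The share of all calls that were false is not given. Only genes with a mean of at least 5 rescaled FPKM were changed, and every gene had the same simulated dispersion. These shares therefore do not carry over to transporters that were lower or more variable, such as Kcnn4 and Slc9a2.

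The transporters and all lists were chosen with earlier results of these data known. All 9 transporters are named, up to 3 genes of each of the wider lists with the smallest p, and the 2 genes most correlated with each transporter, leaving out predicted gene models. Some genes of the wider lists are not reported here. Tables and plots were made with Python 3.11.15, numpy 2.4.6, pandas 2.3.3 and matplotlib 3.10.9. Alternatives were another pseudocount (0.1), no filter, a mean of at least 5, the replicate number as a block, quantile normalization, limma-voom on recovered reads, all groups in 1 fit, other scalings, each library left out and, added after the data were seen, both control libraries numbered 3 left out.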

Additional observations from a re-analysis of the deposited data

How the results depend on the processing

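The direction of the 7 transporters that rose in NEC held under every alternative run in both genotypes, and so did their calls, apart from Slc9a3 and from Kcnn4, which was under the filter, and so not tested, at a mean of at least 5 and with a NEC library left out. The number of genes past the threshold was less stable. In CKO against flox without NEC it was 1, but 0 with no filter, 760 at a mean of at least 5, 735 with limma-voom, 2166 (with 1 transporter, Slc4a4) with all 4 groups in 1 fit, 1345 without both control libraries numbered 3, and 0 to 830 with 1 library left out, the highest without flox control 3. In NEC it was 0, but 2 with all 4 groups in 1 fit and 0 to 1 with 1 library left out. In the interaction it was 181, but 41 with no filter, 417 at a mean of at least 5, 642 without both control libraries numbered 3, and 0 to 646 with 1 left out, the highest without flox control 3. NEC against control gave 7768 genes in flox and 5056 in CKO, and 4871 and 3250 at a mean of at least 5, where fewer genes were tested; with 1 library left out CKO gave 3025 to 4421. The cause of these shifts was otherwise not tested.

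Of the genes past the threshold in NEC against control, 50.8% rose in flox and 46.1% in CKO, against 61.1% and 60.4% on deposited FPKM and 58.9% and 71.2% when scaled by total reads outside mitochondrial genes. Those scalings moved the median of all genes by 0.13 and 0.12 log2, and by 0.11 and 0.25. In the interaction the share was 17.1%, but 36.4% with quantile normalization, 68.6% when scaled by total reads and 8.75% with limma-voom.

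The replicate numbers were not taken to pair the libraries, since nothing states that they mark a shared animal, litter or day. The deviations of same-numbered libraries correlated at 0.19, -0.17 and 0.17 in NEC and at 0.26, 0.054 and 0.49 in control tissue. In control tissue all were positive, and a factor shared by same-numbered control libraries was not tested. With a replicate block, 903 genes passed in CKO against flox without NEC, the call of Slc9a3 in CKO was lost (limma, adjusted p = 0.0578) and Slc26a6 passed in CKO at -0.52 log2 (adjusted p = 0.0398).

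Signs turned for differences that passed no test. Slc26a3 in NEC against control was 0.021 log2 in flox on deposited FPKM, and in CKO 0.22 with quantile normalization, 0.13 on deposited FPKM, 0.28 scaled by total reads and 0.13 without both control libraries numbered 3. In CKO against flox without NEC it was -0.064, -0.091 and -0.091 with quantile normalization, total reads and without those 2 libraries. Cftr in NEC was 0.00052 with limma-voom, and the Slc26a6 interaction 0.0053 scaled by total reads. With 1 library left out, CKO against flox in NEC ran from -0.099 to 0.077 for Cftr, -0.072 to 0.31 for Kcnq1, -0.022 to 0.43 for Kcnn4, -0.11 to 0.15 for Slc9a2 and -0.12 to 0.24 for Slc26a6. Without NEC it ran from -0.018 to 1.15 for Slc9a2 and -0.036 to 0.21 for Slc26a3. The interaction ran from -0.49 to 0.094 for Kcnq1, -1.11 to 0.060 for Slc9a2, -0.054 to 0.39 for Slc9a3, -0.059 to 0.25 for Slc26a3 and -0.48 to 0.057 for Slc26a6. NEC against control for Slc26a3 ran from -0.26 to 0.040 in flox and -0.11 to 0.13 in CKO. Kcnn4 in control tissue, at 31 to 73 reads, is the value most limited by depth.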
